A study of Mus musculus with 16 samples.

Results

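The genes described here are the 3 TGF-beta ligands (Tgfb1, Tgfb2, Tgfb3), their receptors and coreceptor (Tgfbr1, Tgfbr2, Tgfbr3), the latent TGF-beta binding proteins Ltbp1 and Ltbp2, the activin subunit gene Inhba and the inhibitory Smad gene Smad7. They were taken by name, as the array probes whose RefSeq accession maps to one of these 10 symbols. They are 10 of the 20145 genes that the array names, read by 13 of 26582 named probes. All 13 probes passed the filter on dim probes, which a probe passed when every array of some group read it well above background, so all 10 genes were among the 14575 tested. Inhba passed through its signal in glomerular cells only.

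Polysome RNA of mouse glomeruli was measured on 16 arrays, 4 for each of 4 groups, and all mice had the C57BL/6N background. Podocytes of Nphs1-RiboTag-NEP25 mice were sampled 7 days and 4 days after 1 tail vein injection of the immunotoxin LMB2 at 0.625 ng per g of body weight. Normal podocytes and normal glomerular cells came from Nphs1-RiboTag mice, described without NEP25 and without toxin. In all groups Cre recombinase under the control of Nphs1, the gene of nephrin, tags the ribosomes of podocytes, the epithelial cells that wrap the glomerular capillaries. Podocyte RNA was precipitated through that tag, whereas glomerular RNA was taken from polysomes with no precipitation and therefore still holds podocyte RNA. NEP25 mice express human CD25 on podocytes, which LMB2 binds before it blocks protein synthesis in the cell. The age and sex of the mice are not given in the sources used here.

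TGF-beta is secreted as a latent complex, in which the mature ligand stays bound to its own propeptide and, through it, to a latent TGF-beta binding protein that anchors it in the matrix. Integrins, proteases and thrombospondin release the ligand, which then brings together the type II receptor Tgfbr2 and the type I receptor Tgfbr1. The activated receptor phosphorylates Smad2 and Smad3, which enter the nucleus with Smad4 and change transcription. Among the transcripts induced is Smad7, which blocks the receptor and so closes a feedback loop. In the kidney the pathway is known for its part in matrix deposition and glomerular scarring.

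Every level below is a log2 processed intensity minus the 75th percentile of its array, so 0 marks a spot as bright as that percentile. Such levels compare groups for 1 probe and do not rank genes against each other. A gene was called at an adjusted p under 0.05 in limma's moderated test, with the Benjamini-Hochberg adjustment over all 14575 genes and with all 16 arrays in the fit. The 4 podocyte and 4 glomerular arrays of uninjured mice shared 1 slide and scan, and the 8 arrays after LMB2 shared another. Differences after LMB2 from normal podocytes therefore cannot be told apart from the slide, the scan and the NEP25 transgene. The comparisons of podocytes with glomerular cells and of day 7 with day 4 lay within 1 slide each. In the first of these only the podocyte RNA was precipitated, so the cell type cannot be told apart from the precipitation. All 15 podocyte markers tested were higher in normal podocytes than in glomerular cells, and all 14 endothelial and all 12 mesangial and smooth muscle markers were lower. Of all genes tested, 51.6% were higher and 27.5% lower in that comparison. At day 7 after LMB2, 11 of the 15 podocyte markers were lower than in normal podocytes and none was higher, where 36.7% of all genes were lower and 21.6% higher.

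The RNA of the 3 ligands was lower in normal podocytes than in glomerular cells. At day 7 after LMB2 it was higher in podocytes than in normal podocytes. Tgfb2 was already higher than in normal podocytes at day 4, whereas Tgfb1 and Tgfb3 were not called at that time. Against glomerular cells, Tgfb2 and Tgfb3 at day 7 lay above every array, and Tgfb1 lay below every array. Day 7 podocytes and glomerular cells also differed in slide, scan, NEP25 transgene, toxin and precipitation, so this is a description without a test. The type I and type II receptors moved little, the coreceptor Tgfbr3 fell, and Smad7 was not called at either time. These are levels of RNA on polysomes, and fewer cells of a type cannot be told apart from less RNA per cell.

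**Figure D1:**
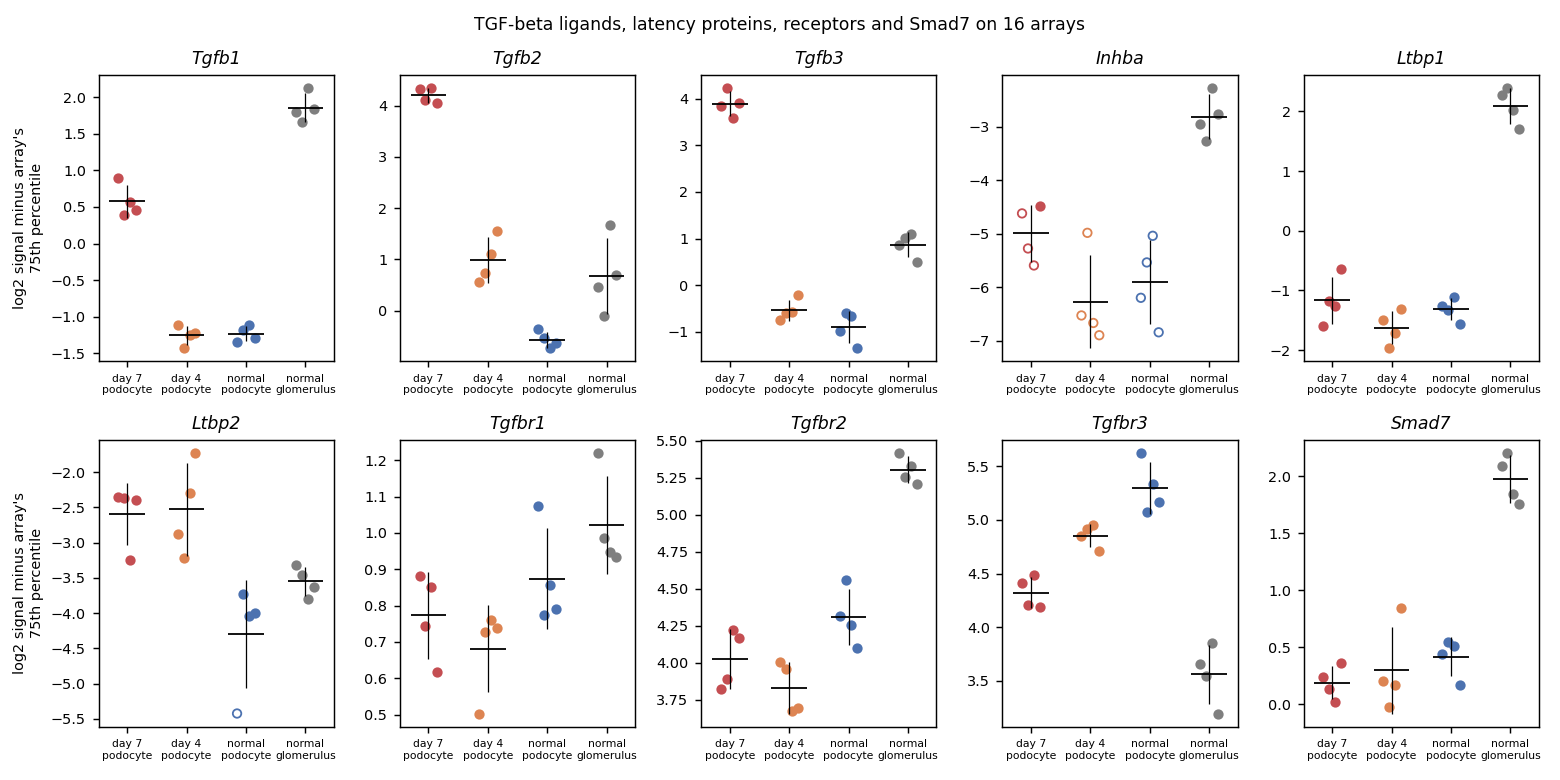
Level of each of the 10 genes on the 16 arrays, as log2 signal minus the 75th percentile of the array, by group; lines show the mean and the SD of 4 arrays, and open circles mark arrays where the probe was not well above background. The 4 day 7 podocyte arrays lie above all other arrays for Tgfb2 and Tgfb3, while the glomerular arrays are highest for Tgfb1, Inhba, Ltbp1, Tgfbr2 and Smad7.

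Tgfb1 encodes the ligand most studied in kidney fibrosis. Its level was 0.90, 0.38, 0.57 and 0.46 on the 4 day 7 podocyte arrays, against -1.34, -1.18, -1.11 and -1.29 on the normal podocyte arrays. The groups did not overlap, and the difference was 1.81 ± 0.13 (log2 ± SE, n = 4 each), or 3.50-fold higher (limma, adjusted p = 4.0e-08). At day 4 it stood at -1.11, -1.43, -1.25 and -1.23, which overlapped with the normal podocytes, and the difference was -0.02 ± 0.13 (limma, adjusted p = 0.91). The interval of that difference ran from -0.29 to 0.25. In glomerular cells the level was 1.80, 1.66, 2.13 and 1.84, so that the day 7 podocytes lay between normal podocytes and whole glomeruli. Normal podocytes were 8.50-fold lower than glomerular cells (log2 difference -3.09 ± 0.13; limma, adjusted p = 2.2e-10).

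Tgfb2 encodes the second isoform, which needs the coreceptor Tgfbr3 for high-affinity binding to Tgfbr2. It read 4.31, 4.10, 4.34 and 4.05 at day 7, 0.55, 0.74, 1.11 and 1.55 at day 4, and -0.36, -0.54, -0.73 and -0.64 in normal podocytes. None of these 3 groups overlapped with another. The day 7 level was 27.3-fold above normal podocytes (4.77 ± 0.29; limma, adjusted p = 1.3e-08), and the day 4 level 2.94-fold above them (1.56 ± 0.29; limma, adjusted p = 0.0011). A second probe of the gene gave 4.69 ± 0.31 at day 7 and 1.68 ± 0.31 at day 4, so the probes moved alike. Glomerular cells read 0.47, -0.10, 1.68 and 0.69, a wide spread in which replicate 3 was highest. All 4 lay above the normal podocytes, which were lower by a log2 difference of -1.25 ± 0.29 (limma, adjusted p = 0.0012).

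Tgfb3 encodes the third isoform. Its level was 3.85, 4.24, 3.59 and 3.91 at day 7, against -0.99, -0.60, -0.66 and -1.35 in normal podocytes. The day 7 arrays stood well clear of all others, with a 27.8-fold difference (4.80 ± 0.19; limma, adjusted p = 3.4e-10). At day 4 the level was -0.76, -0.61, -0.57 and -0.22, which overlapped with normal podocytes, and the difference of 0.36 ± 0.19 did not pass the test (limma, adjusted p = 0.16). Glomerular cells read 0.867, 1.01, 1.102 and 0.487. Normal podocytes were 3.41-fold lower than these, with no overlap (-1.77 ± 0.19; limma, adjusted p = 9.3e-07).

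Between day 7 and day 4, a comparison within 1 slide, all 3 ligands were higher at day 7. The difference was 3.56-fold for Tgfb1 (1.83 ± 0.13; limma, adjusted p = 2.7e-07). It was 9.28-fold for Tgfb2 (3.21 ± 0.29; limma, adjusted p = 3.6e-06). It was 21.6-fold for Tgfb3 (4.43 ± 0.19; limma, adjusted p = 7.1e-09). For each of the 3 ligands the 4 day 7 arrays lay above the 4 day 4 arrays.

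Promoter sequence is shown for the 3 members with a called rise over normal podocytes that have an entry in the RefSeq promoter table. A relation between the motifs and the time of the rise was not tested. Of the 10 members, 7 have an entry, and Tgfb3, Tgfbr3 and Smad7 do not. Each line gives the 250 bases before the start site on the gene's own strand, from RefSeq on GRCm38.p6. Tgfb1 lies on the plus strand at chr7:25686752-25687001, Tgfb2 on the minus strand at chr1:186705990-186706239 and Ltbp2 on the minus strand at chr12:84876492-84876741. Capitals mark exact matches, on either strand, of 6 motifs searched: the cAMP response element half-site TGACG, the AP-1 motif TGANTCA, the Smad box CAGAC, the TATA box TATAAA, the E-box CACGTG and the GC box GGGCGG.
Tgfb1: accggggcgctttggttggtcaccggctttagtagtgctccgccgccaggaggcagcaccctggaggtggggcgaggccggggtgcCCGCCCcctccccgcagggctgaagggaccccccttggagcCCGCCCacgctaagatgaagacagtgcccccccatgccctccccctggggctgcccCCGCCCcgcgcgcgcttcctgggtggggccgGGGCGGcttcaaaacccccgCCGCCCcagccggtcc
Tgfb2: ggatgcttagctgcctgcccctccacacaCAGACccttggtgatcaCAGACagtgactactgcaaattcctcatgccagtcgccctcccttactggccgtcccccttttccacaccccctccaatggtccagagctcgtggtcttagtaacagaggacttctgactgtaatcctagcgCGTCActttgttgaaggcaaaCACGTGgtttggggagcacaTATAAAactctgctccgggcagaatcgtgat
Ltbp2: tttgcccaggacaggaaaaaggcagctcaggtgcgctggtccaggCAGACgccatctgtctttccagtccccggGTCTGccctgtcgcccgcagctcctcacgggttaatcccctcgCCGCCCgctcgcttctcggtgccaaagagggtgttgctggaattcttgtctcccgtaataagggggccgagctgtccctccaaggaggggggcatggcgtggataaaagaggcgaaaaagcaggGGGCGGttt

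The windows of these genes differed in the motifs they held. The Tgfb1 window held 5 GC boxes, the binding motif of Sp1, at -164, -123, -67, -36 and -16 from the start site, and none of the other motifs. The Tgfb2 window held a TATA box at -31, an E-box at -51, a cAMP response element half-site at -72 and Smad boxes at -204 and -221, and no GC box. The Ltbp2 window held Smad boxes at -205 and -176 and GC boxes at -133 and -9. Over all 32851 windows of the same length, 32.7% held the GC box, 12.4% the TATA box, 6.0% the E-box, 17.8% the cAMP response element half-site and 42.2% the Smad box. The AP-1 motif stood in none of the 3 windows shown and in 6.7% of all windows. No 2 of the marked matches overlap. A match is a run of letters, and binding was not measured.

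Inhba encodes the beta A subunit of activin A, a ligand that signals through Smad2 and Smad3. Its probe was well above background on all 4 glomerular arrays, on 1 of 4 day 7 arrays, and on none of the day 4 or normal podocyte arrays. Glomerular cells read -2.94, -3.26, -2.26 and -2.76. Normal podocytes were at least 4.21-fold lower than these, with the lowest signal well above background standing in for their level where it was the higher. Since the probe passed the filter through the glomerular arrays alone, it had to differ between these groups, and no test is given. The day 7 arrays read -4.62, -5.28, -5.59 and -4.48, and only the last was well above background. The fitted difference from day 4 was 1.28 ± 0.44 (limma, adjusted p = 0.038), although the day 4 array at -4.98 lay within the day 7 range. It rests on dim spots, and it was 0.21 with an adjusted p = 0.19 in limma after normexp background correction. The difference from normal podocytes, 0.91 ± 0.44, was not called (limma, adjusted p = 0.091), and no fold is given for either.

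The latent TGF-beta binding proteins differed from each other in their course. Ltbp1, which ties latent TGF-beta to the matrix, had the largest difference between normal podocytes and glomerular cells among the 10 genes measured above background in both. It read -1.26, -1.32, -1.11 and -1.56 in normal podocytes, against 2.27, 2.39, 2.02 and 1.70 in glomerular cells. The groups did not overlap, and podocytes were 10.6-fold lower (-3.41 ± 0.20; limma, adjusted p = 2.9e-09). After LMB2 it read -1.60, -1.17, -1.26 and -0.64 at day 7 and -1.49, -1.97, -1.71 and -1.32 at day 4. Both sets overlapped with the normal podocytes, and neither difference passed the test (0.15 ± 0.20 at day 7 and -0.31 ± 0.20 at day 4; limma, adjusted p = 0.57 and 0.27). The day 7 interval ran from -0.29 to 0.58, so a rise of the size seen for the ligands lay outside it.

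Ltbp2, a matrix protein of this family that associates with microfibrils but does not bind latent TGF-beta, rose at both times. It read -2.36, -2.36, -3.25 and -2.40 at day 7, -2.87, -3.22, -2.30 and -1.73 at day 4, and -5.42, -3.73, -4.04 and -3.99 in normal podocytes. Both LMB2 groups lay above every normal podocyte array, of which the lowest was not well above background. The difference was 3.26-fold at day 7 (1.70 ± 0.37; limma, adjusted p = 0.0011) and 3.40-fold at day 4 (1.77 ± 0.37; limma, adjusted p = 0.0022). Day 7 and day 4 overlapped and differed by -0.06 ± 0.37 (limma, adjusted p = 0.92). Glomerular cells read -3.33, -3.46, -3.79 and -3.63, and the difference of normal podocytes from them, -0.75 ± 0.37, was not called (limma, adjusted p = 0.075).

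Tgfbr1, the type I receptor kinase, was not called in any of the 4 comparisons. It read 0.88, 0.74, 0.85 and 0.62 at day 7, 0.50, 0.73, 0.76 and 0.74 at day 4, 1.07, 0.78, 0.86 and 0.79 in normal podocytes and 1.22, 0.98, 0.95 and 0.93 in glomerular cells. All 16 arrays thus lay between 0.50 and 1.22. Under quantile normalization the difference of podocytes from glomerular cells was -0.34 and was called (limma, adjusted p = 0.0034). The 95% interval of the day 7 difference from normal podocytes ran from -0.32 to 0.11, and that of podocytes from glomerular cells from -0.36 to 0.07. A second, dimmer probe of the gene was also not called, and its differences from normal podocytes had the other sign, 0.37 ± 0.23 at day 7 and 0.42 ± 0.23 at day 4.

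Tgfbr2, the type II receptor that binds the ligand first, was lower in normal podocytes than in glomerular cells. It read 4.32, 4.56, 4.25 and 4.10 in normal podocytes, against 5.42, 5.26, 5.33 and 5.21 in glomerular cells, with no overlap. The difference was -0.997 ± 0.12 (limma, adjusted p = 3.8e-06), and a second probe gave -1.09 ± 0.14. At day 4 the main probe read 4.01, 3.96, 3.67 and 3.69, below every normal podocyte array. That difference of -0.48 ± 0.12 was called (limma, adjusted p = 0.0092), but the second probe gave -0.13 ± 0.14, and the mean of the probes -0.30 with a limma adjusted p = 0.0504. At day 7 the probes differed in sign, with -0.28 ± 0.12 for the main probe and 0.25 ± 0.14 for the second, and neither was called. The second probe was called between day 7 and day 4 (0.38 ± 0.14; limma, adjusted p = 0.045 over all probes), where the main probe was not (0.19 ± 0.12).

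Tgfbr3, also called betaglycan, is a coreceptor that presents ligand, above all the Tgfb2 product, to the type II receptor. It was the only one of the 10 genes called higher in normal podocytes than in glomerular cells, and the only one called lower at day 7 than in normal podocytes in the fit reported here. Tgfbr2 was called lower as well after normexp background correction (-0.29) and without normal podocyte replicate 4 (-0.35), day 7 replicate 3 (-0.35) or day 7 replicate 4 (-0.33). The level was 4.41, 4.21, 4.48 and 4.19 at day 7, 4.85, 4.91, 4.95 and 4.71 at day 4, 5.62, 5.07, 5.34 and 5.17 in normal podocytes and 3.66, 3.54, 3.85 and 3.20 in glomerular cells. No 2 of the 4 groups overlapped, and normal podocytes were highest, before day 4, day 7 and glomerular cells. Podocytes stood 3.34-fold above glomerular cells (1.74 ± 0.14; limma, adjusted p = 6.2e-08).

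At day 7 Tgfbr3 was 1.97-fold lower than in normal podocytes (-0.98 ± 0.14; limma, adjusted p = 4.5e-05). It was also lower than at day 4 (-0.53 ± 0.14; limma, adjusted p = 0.011). The day 4 difference from normal podocytes was -0.45 ± 0.14 (limma, adjusted p = 0.028). That call did not hold without normal podocyte replicate 1, where the difference was -0.34 (limma, adjusted p = 0.091), nor without normal podocyte replicate 3, day 4 replicate 1 or day 4 replicate 4, with differences of -0.43, -0.45 and -0.40. The fall of Tgfbr3 at day 7 went with the lower podocyte markers. Their summed linear level ran from 1554 to 1844 on the day 7 arrays, from 2019 to 2495 at day 4, and from 2464 to 2587 in normal podocytes, where the array's 75th percentile is 1. The part of this shift in the fall of Tgfbr3 was not tested.

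Smad7, the feedback inhibitor of the receptor, was not called after LMB2 while the ligands rose. It read 0.24, 0.13, 0.02 and 0.36 at day 7, 0.20, -0.03, 0.17 and 0.85 at day 4 and 0.44, 0.55, 0.51 and 0.16 in normal podocytes. The 3 podocyte groups overlapped, and the differences from normal podocytes were -0.23 ± 0.17 at day 7 and -0.12 ± 0.17 at day 4 (limma, adjusted p = 0.26 and 0.63). The 95% intervals ran from -0.59 to 0.13 at day 7 and from -0.48 to 0.24 at day 4, and a scaling to array medians called Smad7 lower at day 7. In glomerular cells the level was 2.09, 2.21, 1.85 and 1.76, above every podocyte array. Normal podocytes were 2.95-fold lower than these (-1.56 ± 0.17; limma, adjusted p = 9.2e-07).

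**Figure D2:**
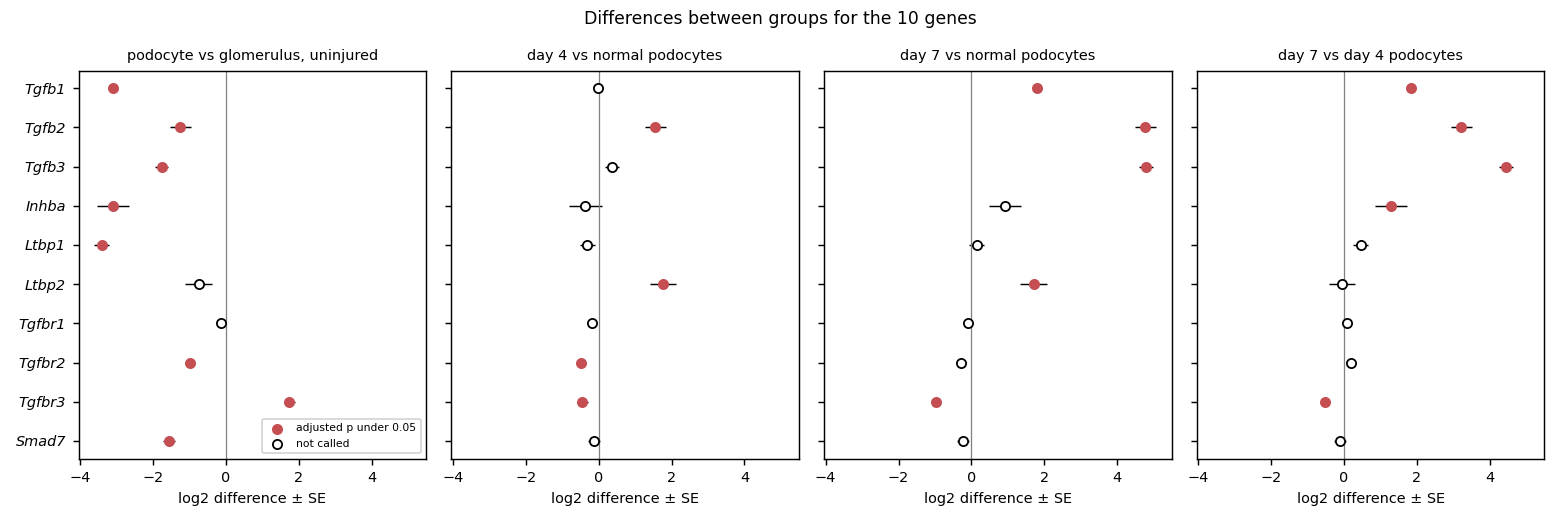
Differences in log2 level (x axis, ± SE, n = 4 arrays each) of the 10 genes in 4 comparisons, with filled points for an adjusted p under 0.05. For Inhba the podocyte values come from arrays mostly below background. Its filled point in podocytes against glomerular cells followed from the filter and is no test. Tgfb2 and Tgfb3 stand near 4.8 in day 7 against normal podocytes, and Tgfbr1 and Smad7 near 0 in each comparison of podocytes after LMB2.

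Counted over the 10 genes, 8 were called between normal podocytes and glomerular cells, 1 higher and 7 lower, where 79.1% of all genes tested were called, 51.6% higher and 27.5% lower. The 7 include Inhba. The same 8 had arrays that did not overlap between the groups, as 73% of all genes did. Inhba passed the filter through the glomerular arrays alone, so its call and its lack of overlap there followed from the filter and are no test. Between day 4 and normal podocytes 4 were called, 2 higher and 2 lower, where 32.2% of all genes were, 12.3% higher and 19.9% lower. Those 4 and Tgfbr1 did not overlap, against 33.1% of all genes. Between day 7 and normal podocytes 5 were called, 4 higher and 1 lower, where 58.3% of all genes were, 21.6% higher and 36.7% lower. These 5 also did not overlap, against 50.6% of all genes. Between day 7 and day 4 the count was 5, 4 higher, with the dim Inhba among them, and 1 lower, where 34% of all genes were called, 13.2% higher and 20.7% lower. Of these, the 4 other than Inhba did not overlap, against 34.2% of all genes. The median difference of the 10 genes was -1.41, -0.16, 0.53 and 0.33 in these comparisons, taken in the same order, and that of all genes 0.38, -0.12, -0.14 and -0.07. With each array's median over all probes set to 0 in place of its 75th percentile, 8 members were called between day 7 and normal podocytes, 4 higher and 4 lower. That scaling moved the median of all genes to -0.47 and added Tgfbr1 (-0.42), Tgfbr2 (-0.60) and Smad7 (-0.55) to the lower calls.

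The rest of the pathway was read through lists of genes with a shared role. Beside their counts, and those of the markers below, stand the shares of all genes tested. Of these, 21.6% were higher and 36.7% lower at day 7 than in normal podocytes, and 12.3% and 19.9% at day 4. Between normal podocytes and glomerular cells 51.6% were higher and 27.5% lower. Of 17 genes of latency and activation that were tested, 6 were higher and 6 lower at day 7 than in normal podocytes, and 1 was higher and 1 lower at day 4. Mmp2, a gelatinase that can cleave the latent complex, was higher at day 7 (2.00 ± 0.57). Lrrc32, whose product GARP holds latent TGF-beta on the cell surface, was also higher (1.78 ± 0.33), as was Itgb6, the beta subunit of an integrin that activates the latent ligand (1.69 ± 0.28). The 6 lower genes changed less than Mmp2, Lrrc32 and Itgb6. Their largest falls were in the latent TGF-beta binding protein gene Ltbp4 (-1.22 ± 0.22) and the integrin subunit Itgb5 (-1.03 ± 0.12). The others were Ltbp3, of the same family as Ltbp4 (-0.81 ± 0.11), the thrombospondin gene Thbs1 (-0.80 ± 0.16), the integrin subunit Itgb8 (-0.69 ± 0.18) and Fbn2 (-0.54 ± 0.15). Lrrc32 read 2.51, 2.93, 3.10 and 3.43 at day 7, against 0.41, 1.05, 2.21 and 1.16 in normal podocytes, so that its groups did not overlap. At day 4 Itgb6 was higher (1.03 ± 0.28) and Mmp14, a membrane-bound metalloprotease, lower (-0.90 ± 0.20). Between normal podocytes and glomerular cells 6 of these 17 were higher and 8 lower, led by Itgb3, the integrin beta 3 subunit (-3.81 ± 0.65), Lrrc32 (-3.62 ± 0.33) and Fbn1, the gene of the microfibril protein fibrillin (-3.61 ± 0.29).

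Of 9 receptors and coreceptors of the wider family that were tested, none was called higher at day 7 and 6 were lower than in normal podocytes, against 1 lower at day 4. The type I activin receptor Acvr1b fell by 1.80 ± 0.24 at day 7 and by 0.89 ± 0.24 at day 4. The type II activin receptors Acvr2b (-0.91 ± 0.10) and Acvr2a (-0.82 ± 0.14) were lower at day 7. In normal podocytes against glomerular cells 6 of 9 were higher and 2 lower. The lower pair were Eng (-4.57 ± 0.23) and Acvrl1 (-4.17 ± 0.20), an endothelial coreceptor and an endothelial type I receptor. Bmpr1a, a BMP receptor, was higher in podocytes (1.60 ± 0.11).

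Among 14 genes tested in the list of other ligands, 8 were higher and 2 lower at day 7, and 4 were higher and 2 lower at day 4. The list holds Bmp1, which encodes a protease and not a ligand and was among those higher at day 4 (0.66 ± 0.16). Gdf15, a stress-induced member of the family, was higher at day 7 (3.07 ± 0.40) and at day 4 (2.68 ± 0.40). Gdf9, best known from the oocyte, was also higher, by 2.47 ± 0.22 at day 7 and by 1.65 ± 0.22 at day 4. Inha, the alpha subunit that turns activin into inhibin, was not above background on any normal podocyte array, and was at least 2.28-fold higher at day 7 and at least 4.54-fold higher at day 4. Normal podocytes and glomerular cells read alike for it (0.17 ± 0.38, not called). Its probe may thus have passed the filter through the arrays after LMB2 alone. In that case its calls, which stand in the counts of both days, followed from the filter and are no test. Of 12 extracellular inhibitors, 4 were higher and 1 lower at day 7, with Crim1, which binds BMPs, at 1.79 ± 0.16, Bmper, another BMP-binding protein, at 1.44 ± 0.39, and Fstl3, which binds activin, at 1.098 ± 0.27. At day 4 the sole call in that list was Chrd, a BMP antagonist, which was lower (-0.44 ± 0.11). In normal podocytes against glomerular cells the ligands split into 3 higher and 8 lower, with Gdf10 at -4.36 ± 0.30, Bmp6 at -3.92 ± 0.26 and Bmp2 at -3.40 ± 0.26, and the inhibitors into 5 higher and 6 lower, with Sostdc1 at -4.80 ± 0.36 and Bmper at -4.21 ± 0.39.

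Of 10 Smads and nuclear partners tested, 1 was higher and 2 lower at day 7, and 2 were higher and 2 lower at day 4. The rise was in Smad4, the partner that all receptor-activated Smads share. It read 6.60, 6.52, 6.64 and 5.95 at day 7, 5.16, 5.08, 5.77 and 6.11 at day 4 and 3.76 to 4.10 in normal podocytes, with both LMB2 groups above the normal arrays. The difference was 2.53 ± 0.20 at day 7 and 1.63 ± 0.20 at day 4 (limma, adjusted p = 1.9e-07 and 3.3e-05). Smad2, a receptor-activated Smad of the TGF-beta branch, was slightly lower at day 7 (-0.35 ± 0.09). Smad1, of the BMP branch, read lower at day 7 (-0.78 ± 0.18) and day 4 (-0.88 ± 0.18), but a second probe read 0.36 ± 0.26 at day 7 and 0.70 ± 0.26 at day 4. In normal podocytes against glomerular cells, 6 of 10 were higher, among them Smad3 (1.20 ± 0.13) and Smad2 (1.05 ± 0.09), and 2 were lower, led by Smad9 (-2.26 ± 0.41).

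The inhibitors inside the cell did not move as 1 group. Of 13 tested, 3 were higher and 4 lower at day 7, and 4 were higher and 1 lower at day 4. The corepressors Tgif1 and Tgif2 were higher at day 7 (2.10 ± 0.28 and 1.99 ± 0.24) and at day 4 (1.56 ± 0.28 and 2.53 ± 0.24). Tgif2 read -1.04, -1.09, -0.91 and -1.42 at day 7 and -0.80, -1.002, -0.41 and -0.06 at day 4, all above its normal range of -3.24 to -2.72. Pmepa1, a TGF-beta target that restrains Smad2 and Smad3, fell by 1.29 ± 0.15 at day 7 (limma, adjusted p = 7.1e-06). Pmepa1 read 4.32, 4.37, 4.86 and 4.71 at day 7, against 5.67, 5.65, 6.06 and 6.02 in normal podocytes, with no overlap. Like Tgfbr3, it was higher in normal podocytes than in glomerular cells (2.10 ± 0.15).

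**Figure D3:**
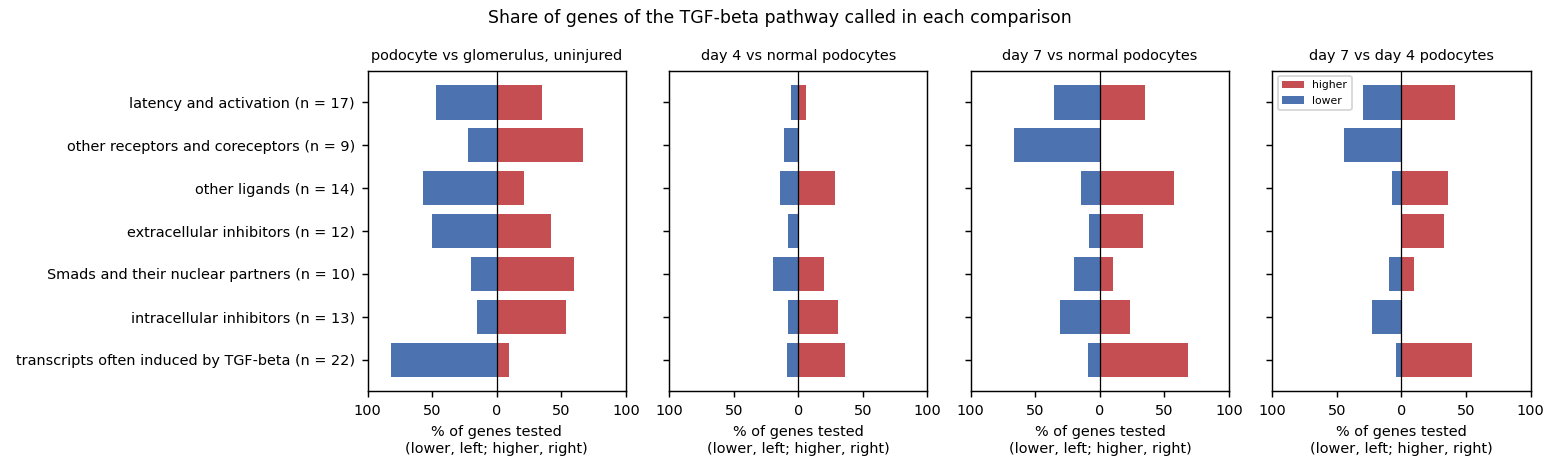
Share of the genes tested in 7 lists of the pathway (rows, n in brackets) that were called higher (right, red) or lower (left, blue), in percent, in 4 comparisons. In day 7 against normal podocytes the bar for other receptors points only to the lower side, with 6 of 9 genes, and that for transcripts often induced by TGF-beta mostly to the higher side, with 15 of 22 genes. Of all genes tested, 36.7% were lower and 21.6% higher in that comparison.

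Transcripts often induced by TGF-beta were higher at day 7 in 15 of 22 tested and lower in 2, with a median difference of 1.95. At day 4 the count was 8 higher and 2 lower, with a median of 0.37, and in normal podocytes against glomerular cells 2 higher and 18 lower, with a median of -2.14. Timp1, an inhibitor of matrix metalloproteases, read 3.33, 4.22, 4.86 and 4.21 at day 7, -0.92, -0.997, -0.39 and 0.07 at day 4 and -2.51, -2.21, -1.82 and -2.72 in normal podocytes. None of these 3 groups overlapped, and the difference from normal podocytes was 6.47 ± 0.32 at day 7 and 1.75 ± 0.32 at day 4 (limma, adjusted p = 1.6e-09 and 0.00084). Tagln, the actin-binding protein transgelin, was higher by 6.01 ± 0.25 at day 7. At day 4 the largest difference in the list was that of Cdkn1a, the cell cycle inhibitor p21 (4.38 ± 0.50; 0.99 ± 0.27 for its other probe), followed by Junb, an AP-1 subunit (1.96 ± 0.31).

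**Figure D4:**
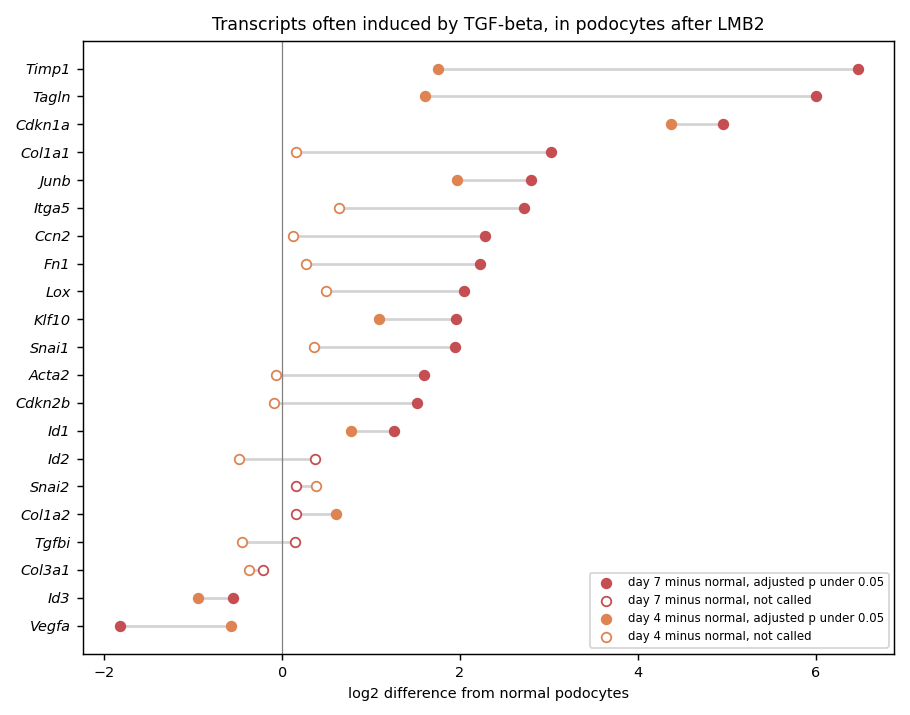
Difference in log2 level from normal podocytes at day 7 (red) and day 4 (orange) after LMB2 for 21 transcripts often induced by TGF-beta, ordered by the day 7 value, with filled points for an adjusted p under 0.05. Of those plotted, Timp1 and Tagln lie furthest right at day 7, at 6.47 and 6.01, and each is nearer to 0 at day 4.

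Several of these transcripts are also markers of other cells. Of 12 mesangial and smooth muscle markers, 6 were higher and none lower at day 7 (Tagln, Des, Cnn1, Acta2, Fhl2 and Cspg4), and the median difference was 0.68. Their summed linear level ran from 809 to 1101 at day 7, from 51.5 to 83.5 at day 4 and from 28.8 to 42.0 in normal podocytes, against 184 to 270 in glomerular cells. Without Acta2 and Tagln, which also stand among the transcripts often induced by TGF-beta and were left out after the data were seen, the sum ran from 18.6 to 25.7 at day 7, from 11.4 to 15.8 at day 4 and from 14.2 to 20.8 in normal podocytes, against 146 to 183 in glomerular cells. All 6 parietal epithelial markers tested were higher at day 7, where their sum ran from 4.52 to 9.47, against 2.61 to 3.35 in normal podocytes and 19.0 to 26.5 in glomerular cells.

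Of 14 endothelial markers, 3 were higher and 2 lower at day 7, and their sum of 59.2 to 85.2 overlapped with that of normal podocytes, 55.7 to 102. Of 12 leukocyte markers, 2 were higher and 1 lower at day 7, and Lyz2 and Adgre1 were not well above background on any day 7 array. The summed leukocyte level was 20.2 to 33.5 at day 7, against 25.1 to 36.2 in normal podocytes. None of 10 proximal tubule markers was called after LMB2, and their sum was highest on day 7 replicate 4 (277), on day 4 replicate 1 (180) and on normal podocyte replicate 4 (144). The day 7 levels of Tgfb2 and Tgfb3 lay above every array of uninjured glomerular cells, and those of Tgfb1 lay below every one. Glomerular cells after LMB2 were not measured, so this does not show how much RNA other cells gave to the day 7 arrays. The part of the smooth muscle, parietal and tubule markers in the rise of the ligands was not tested.

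The genes whose levels ran most like those of the ligands over the 12 podocyte arrays were found by Pearson's r, a description over arrays that fall into 3 groups. Nearest to Tgfb3 were S100a6 (r = 0.997), Sema7a (r = 0.994) and Cavin3 (r = 0.993), with day 7 differences from normal podocytes of 6.65 ± 0.24, 5.26 ± 0.33 and 3.33 ± 0.16. Nearest to Tgfb2 were Actn1 (r = 0.997), Pdlim7 (r = 0.995) and Tagln (r = 0.993), with day 7 differences of 2.95 ± 0.13, 4.30 ± 0.19 and 6.01 ± 0.25. Actn1 encodes an actin crosslinker and Pdlim7 a protein of actin-based junctions. Day 4 differences were larger for the genes near Tgfb2 (1.05, 1.61 and 1.61) than for those near Tgfb3 (0.64, 0.84 and 0.16), a contrast that the choice by likeness itself sets. Nearest to Tgfb1 were Ier5l (r = 0.984), Cav2 and Zfp697 (r = 0.983 each).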

How the data were processed

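The members and gene lists were chosen with earlier results of these data known. The deposited scanner files hold, per the file headers, 1-colour Agilent processed intensity from Feature Extraction 11.5.1.1, background-subtracted and not normalized between arrays. The log2 values in the authors' table carry an unstated shift per array (column medians -3.17 to -2.51), and 6 of its 16 columns match another replicate of their group. It was used as an alternative.

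Control and outlying spots were left out and spots of 1 probe averaged (55681 probes). Accessions matched to RefSeq named 26582 probes and 20145 genes, with 29099 probes unnamed. Of 59305 spots per array none was saturated, 49.3% to 57.5% were well above background, and the 75th percentile of intensity ran from 227 to 415. A gene is its kept probe with the highest mean. Group means were fitted with limma 3.58.1 in R 4.3.3, tested on simulated data beforehand, with 12 residual degrees of freedom; the number of arrays limits precision. The labels do not say whether arrays are separate animals, so p-values measure spread between samples, which may be technical. Same-numbered podocyte and glomerular arrays of normal mice deviated together (r 0.423 to 0.505, from the arrays themselves), so these numbers pair. In the other comparisons the numbers did not pair throughout, although number 4 deviated together between day 7 and normal podocytes (r = 0.486). Arrays of unlike number deviated together as well, up to r = 0.637 between day 7 and day 4 and up to r = 0.449 between day 4 and normal podocytes. The reported fit holds the group only and leaves the pairing out, which the replicate block below takes in.

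The text names all members, and of each pathway list at most the 3 called genes with the largest change per comparison, except that 1 gene is not reported here. Genes added for likeness are the 3 with the highest r to each ligand. Genes named outside these rules (Des, Cnn1, Acta2, Fhl2, Cspg4, Lyz2, Adgre1, Thbs1, Itgb5, Itgb8, Ltbp3, Ltbp4, Fbn2, Bmp1) were chosen after their values were seen. Alternatives tried were quantile and median scaling, normexp with an offset of 50, no filter, the mean of probes, fewer arrays in the fit, a replicate block, the authors' table and each array left out.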

Additional observations from a re-analysis of the deposited data

Results flagged for a closer look

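For Tgfb1, Tgfb2, Tgfb3 and Tgfbr3 the difference from normal podocytes at day 7 was not the same as that at day 4. The normal group cancels in this contrast, so it is the comparison of day 7 with day 4 already given. Its value was 1.83 for Tgfb1, 3.21 for Tgfb2, 4.43 for Tgfb3 and -0.53 for Tgfbr3, on the log2 scale. For Inhba the fitted value was 1.28, but its probe was not well above background on 7 of the 8 arrays, and the call was lost under several alternatives, so no difference is read from it.

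A single array stood apart from the other 3 of its group in 2 cases, by the ratio of its gap to the whole range, which lay above Dixon's 95% critical value. Day 4 replicate 1 was low for Tgfbr1 (ratio 0.873), and day 7 replicate 3 was low for Ltbp2 (ratio 0.961). Chance flags about 1 in 20 groups.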

How the results depend on the processing

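Of 680 recomputed values of single members, 636 kept direction and side of the threshold, 13 came to pass the test and 17 no longer passed it. The other 14 changed sign, all of them values that were called in neither fit: Tgfbr1 at day 7 (0.0058 under quantile normalization, 0.13 with the mean of probes), Tgfbr1 at day 4 (0.11 with the mean of probes), Tgfbr1 in podocytes against glomerulus (0.17 with array medians set to 0), Ltbp1 at day 7 (-0.18 with array medians set to 0), and Tgfb1 and Inhba at day 4 (0.0317 and 0.11 after normexp). With 1 array left out, the values with sign changes ran from -0.0711 to 0.0365 for Tgfb1 at day 4, from -0.031 to 0.29 for Ltbp1 at day 7, and from -0.29 to 0.21 for Ltbp2 and from -0.22 to 0.0745 for Smad7 between day 7 and day 4. The rises of Tgfb1, Tgfb2, Tgfb3 and Ltbp2 and the fall of Tgfbr3 at day 7, and the 7 calls other than Inhba between podocytes and glomerular cells, were called under every alternative run. With each array's median set to 0, 8 members were called between day 7 and normal podocytes, and the split of all genes called was 21% higher, against 37.1% in the reported fit. At day 4 that split was 16.9% against 38.3%. This scaling uses all probes, dim ones included. With a replicate block in the 8 arrays compared, added after seeing the data, genes called numbered 2310 between day 4 and normal podocytes (4695 in the reported fit), 54.4% of them higher, and 3063 between day 7 and day 4 (4951 in the reported fit); the cause was not tested. The block changed no call of a member between podocytes and glomerular cells, where the numbers pair. It ended the calls of Tgfbr3 at day 4 (limma, adjusted p = 0.084) and of Inhba between day 7 and day 4 (limma, adjusted p = 0.12).

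With 1 array left out, members called numbered 8 to 9 (podocyte against glomerulus), 3 to 4 (day 4 against normal), 5 to 6 (day 7 against normal) and 4 to 5 (day 7 against day 4). Genes called ran from 11180 to 11349, 3560 to 4542, 7857 to 8288 and 3787 to 4652 in the same order. The Inhba call between day 7 and day 4 did not hold without day 4 replicate 1, 3 or 4 or day 7 replicate 1, 2 or 4. The slide as a block could not be fitted after LMB2 against normal podocytes, since each slide held 1 side of those comparisons. Signal near background limits Inhba and the lowest normal podocyte array of Ltbp2.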
